A study of Mus musculus with 4 samples.

Results

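The 2 arrays described here hold RNA of cells sorted from the spleens of BXD2 mice that had received PBS alone, 2 of the 4 arrays of the series. They were chosen by their labels and form 1 group, so no group is compared below. On them, 19057 genes had a probe that carries exactly 1 gene symbol in the platform annotation, and these genes were ranked by the mean intensity of both arrays, each gene by its brightest probe. BXD2 is a recombinant inbred strain that develops lupus-like autoimmunity with age, and its marginal zone macrophages are described by the submitters as spontaneously defective. Per the labels, the mice were 2.5 months old and were killed 10 hours after PBS, the spleen cells were sorted as CD11b low, F4/80 negative, I-Ab negative and SIGN-R1 positive, and each array pooled cells of 2 mice. The labels do not say whether the mice behind array 1 and array 2 differed, so the gap between the arrays may be technical. The other arrays of the series, 1 from BXD2 mice without the type I interferon receptor and 1 from BXD2 mice given a soluble lymphotoxin receptor decoy, were not used here.

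Marginal zone macrophages lie in the spleen, in the ring where blood enters around the lymphoid follicles. They take up blood-borne particles through scavenger receptors such as MARCO and through the lectin SIGN-R1, which is the product of Cd209b. Abundant transcripts of most dividing or secreting blood cells encode ribosomal, mitochondrial and cytoskeletal proteins, while transcription factors and receptors, which define a lineage, are usually dim on an array.

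The 2 arrays were alike in their overall signal. The most frequent intensity, taken as background, was 105 on array 1 and 108 on array 2, and the limits above which a probe counted as detected were 113 and 115. Of 45281 probes, 53.7% passed on array 1 and 53.4% on array 2. Of the 19057 genes, 11601 were above background on both arrays (60.9%), and 13620 on at least 1. The number of arrays, 2, limits the precision of every value, so both values are given rather than a mean, array 1 first. A probe's intensity depends on its sequence as well as on its transcript, so a rank describes signal and not a number of transcripts.

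The SIGN-R1 gene itself was close to background. Cd209b gave 133 and 136, which is 1.17 and 1.18 times the limits, and it ranked 8935. Its further probes gave 110.3 and 112 and, for the other, 112 and 106, all of them below the limits. Both arrays thus placed Cd209b just above the limit through 1 of 3 probes. Marco, the scavenger receptor, gave 296 and 172 and ranked 6181. Csf1r, the receptor for the macrophage growth factor M-CSF, gave 757 and 389.6, with a second probe at 108.1 and 106.7. Csf1r and Marco were both brighter on array 1 than on array 2, by 1.77-fold and 1.62-fold after the arrays were quantile normalised, the scale of every fold between arrays below.

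Other markers of the marginal zone macrophage were also dim. Of the 10 genes on that list, 6 were above background on both arrays, beside 60.9% of all genes, and the median rank was 9746. None was among the 500 brightest genes, a class that holds 2.62% of all genes. Tgm2, a transglutaminase found in many macrophages, was the brightest at 1073 and 639.7. Nr1h3, which encodes the nuclear receptor LXR alpha needed for these cells, gave 191 and 142, and the scavenger receptor gene Scarf1 gave 203 and 196. The sialoadhesin gene Siglec1 (108 and 114), Colec12 (110.3 and 111) and Msr1 were not above background on both arrays. The list together held 0.0152% of the summed signal above background on array 1 and 0.00928% on array 2. In bulk RNA, fewer cells of a type and less RNA per cell cannot be told apart. Because the markers of the labelled cell type were this dim, the material is called the SIGN-R1 sort below.

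The genes behind the gate's other markers were read as well, although a gate reads surface protein and an array reads RNA. The sort left out cells with surface I-Ab, an MHC class II molecule that presents peptides to CD4 T cells. H2-Ab1, which encodes its beta chain, was bright at 10240.2 and 8388 and ranked 107, and its further probes gave 3045 and 2656, and 404 and 325. Adgre1, which encodes F4/80, gave 767 and 339.6, with further probes at 404 and 250.3 and at 101 and 116. Itgam, which encodes CD11b, was at the limit with 116 and 114.

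Housekeeping functions led the ranking. The 30 brightest genes held 8.25% of the signal above background on array 1 and 9.26% on array 2. The 500 brightest held 43.6% and 44.0%. Of the 30, 25 were on 1 of the 45 gene lists used here (21 of cell types, 24 of functions), and 1 of them, Mpo, was on a cell type list. Of the 500, 194 were on any list (38.8%) and 28 on a cell type list. The lists hold 1168 of all 19057 genes (6.13%), and the cell type lists 328 of them. The limit of the 500 fell at Ldha, the last inside with 3829 and 3458, and Pkm, the first outside with 3533 and 3737. When each array was ranked alone, 464 of 500 genes were shared, 92.8% of each ranking.

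Cytosolic ribosomal protein genes were the largest group by signal. Of 63 measured, 61 were above background on both arrays and 36 were among the 500 brightest, and together they held 7.11% of the signal on array 1 and 7.75% on array 2. Rps12 was the brightest gene of all with 32502 and 32171. Rps2 followed with 32147 and 31324, Rps24 with 31917 and 30700.2 and Rps29 with 30514 and 30854. Rpl41, Rpl3, Rpl23, Rpl38, Rpl37, Rpl27a, Rps19, Rpl9, Rps14, Rpl32, Rps3, Rpl10a and Rps4x completed the ribosomal genes among the 30. The values of the leading genes nearly coincided on both arrays, and none of the 63 was 2-fold apart. The list was not uniformly bright. Rps23 gave 288 and 180.5 and Rpl14 gave 518 and 317, while Rpl39l and Rps4l were not above background on both arrays. Ribosomal protein genes have many near-identical pseudogenes, which a probe may also bind.

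Many ribosomal protein mRNAs begin with a run of pyrimidines, the 5' terminal oligopyrimidine tract that ties their translation to mTOR. The sequences around 3 of the leading starts are shown because they differ in whether a run of 8 or more pyrimidines lies near the annotated start. Each runs from 70 bases before to 30 bases after the start annotated by RefSeq on GRCm38.p6, on the gene's strand, and capitals mark a run of 8 or more C or T letters within the 20 bases either side of the start. They are Rps12 (chr10:23787180-23787279, minus strand), Rps24 (chr14:24490608-24490707, plus strand, the first of 2 starts listed) and Rps2 (chr17:24719993-24720092, plus strand).
Rps12: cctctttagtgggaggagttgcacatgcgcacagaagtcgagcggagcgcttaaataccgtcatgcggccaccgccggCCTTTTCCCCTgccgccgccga
Rps24: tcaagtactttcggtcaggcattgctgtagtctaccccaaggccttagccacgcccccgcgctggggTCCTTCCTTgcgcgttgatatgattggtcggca
Rps2: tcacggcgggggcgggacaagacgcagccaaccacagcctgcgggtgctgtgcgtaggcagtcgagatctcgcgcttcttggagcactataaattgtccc
In Rps24 the run spans the annotated start, in Rps12 it lies 8 to 18 bases after it, and Rps2 has none of that length. Rpl41, searched in the same way, had none either and is not printed. Such a run was present in 23 of the 52 ribosomal protein genes matched by symbol (44.2%), beside 18.4% of the 27025 genes of the promoter table. The search read the gene's own strand only, and a match is a description of letters. Shorter runs were not searched for, so a gene without a match may still carry a tract.

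Translation factors added 2.38% and 2.52% of the signal, with 54 of 62 above background on both arrays and 15 among the 500. Eef1a1, the factor that delivers aminoacyl-tRNA to the ribosome, gave 27298 and 32027, and Eef1g, a subunit of its exchange factor, gave 23282 and 24334. Naca, Eif3f and Pabpc1 followed with 17861 and 15397, 15009 and 16010.1 and 15793 and 13623. Genes of oxidative phosphorylation encoded in the nucleus held 2.26% and 2.21%, with 20 of 80 among the 500. The ATP synthase subunit genes Atp5b (19886 and 19713) and Atp5g3 (16287 and 14656) led them. Of 8 mitochondrially encoded genes, a list added after values had been seen, 5 were among the 500. CYTB, a subunit of complex III, gave 27886 and 28029.5, ND1 gave 21913 and 18168 and COX2 gave 21809.9 and 14125. Of 76 mitochondrial ribosomal protein genes 73 were above background on both arrays, with a median rank of 2761, and 2 were among the 500, a share near the 2.62% of all genes. They were led by Mrps24 (4935 and 4293) and Mrpl52 (4583 and 3561).

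Actin and motility genes were the next prominent group, as in most migrating leukocytes. All 28 measured were above background on both arrays and 12 were among the 500, or 7 with the median over a gene's probes. Actb gave 26784 and 29994, but only 1 of its 5 probes was bright. The actin-sequestering Tmsb4x gave 16060.5 and 12696, and the Arp2/3 complex genes Arpc5 (12479.9 and 12641) and Arpc2 (11791 and 9802) and the haematopoietic coronin Coro1a (13654 and 9641) followed. Of 30 chaperones, 11 were among the 500, led by Hspa8 (20944 and 17539), the cyclophilin Ppia (15190.2 and 15637) and the mitochondrial Hspd1 (9911 and 8914). Of 43 proteasome subunits, 12 were among the 500, led by Psma2 (10398 and 9066) and Psmd4 (9913 and 8081). Splicing factors were represented by Hnrnpab (21706 and 19351) and Hnrnpm (16451 and 16429.6), with 6 of 48 among the 500. Of 15 glycolytic genes 2 were among the 500, Gapdh (4589 and 3376) and Ldha, and 1 when array 1 was ranked alone.

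**Figure D1:**
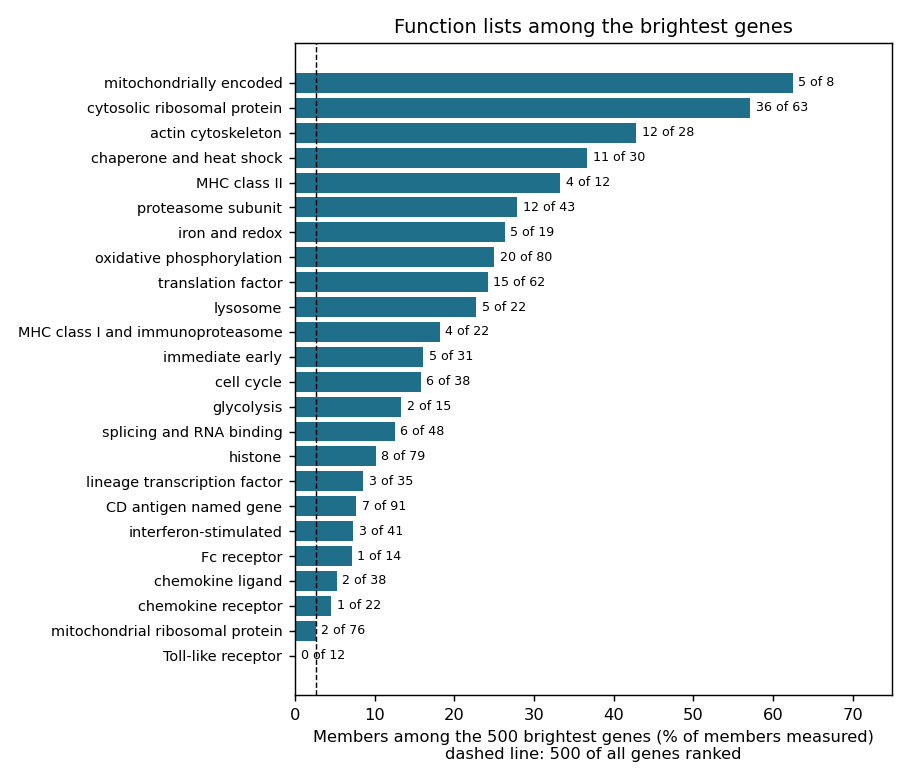
Percentage of the measured members of each of the 24 function lists that were among the 500 brightest genes of the BXD2 PBS sort, with counts at the bars and a dashed line at 2.62%, the share of all genes. The mitochondrially encoded (5 of 8) and cytosolic ribosomal protein lists (36 of 63) have the longest bars, and none of the 12 Toll-like receptor genes is included.

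Lysosomal and iron-handling genes were abundant too. Laptm5, a lysosomal membrane protein of blood cells, gave 27164 and 28000.1 and ranked 11. The sphingolipid activator gene Psap gave 14009.9 and 12107 and the protease gene Ctsb gave 12720.2 and 9276. In all, 5 of 22 lysosomal genes were among the 500. Of 19 iron and redox genes 5 were among the 500, and 8 when array 1 was ranked alone, led by the ferritin heavy chain gene Fth1 (28874 and 25728), the peroxiredoxin gene Prdx1 (8549.9 and 7674) and the ferritin light chain gene Ftl1 (9026 and 5516). Ftl1 and Ctsb were lower on array 2, by 1.44-fold and 1.20-fold.

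Some cell cycle and histone genes were among the abundant transcripts, while the lists had median ranks of 3595 and 7301. Mcm6 (8899.6 and 6864) and Mcm4 (7546 and 6847), subunits of the replicative helicase, and the tubulin gene Tubb5 (6425 and 6932) were among the 500, as were 6 of 38 cell cycle genes in all, and 3 with the median over the probes of a gene. The mitotic kinase gene Plk1 gave 1679 and 1288 and the checkpoint gene Bub1b gave 1644 and 1564. Of 79 histone genes, 8 were among the 500, led by H2ac24 (16933 and 12774), H2ac7 (14394 and 11519.6) and H2ac20 (12876 and 10707), whose coding sequences are near-identical, so a probe may bind several of them. Immediate early and quiescence genes were also bright, with 5 of 31 among the 500. Btg1, an antiproliferative gene, gave 17345 and 15191, Zfp36l1 gave 11662 and 10512 and Klf6 gave 13353 and 8650.1. Fos, the classic early gene, gave 4289.6 and 2703.

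MHC class II genes were abundant although I-Ab had been gated out. Of 12 genes 11 were above background on both arrays and 4 were among the 500. H2-Aa, the alpha chain of I-A, gave 16656 and 13364 and ranked 49. Cd74, the invariant chain that guards the class II groove, gave 5929.5 and 5357, and H2-Eb1 gave 5707 and 4718. The peptide-loading genes H2-DMa (1490.2 and 1485) and H2-Oa (1519 and 1526) and the class II transactivator gene Ciita (1022 and 823) were lower on their own probes. H2-Ea, which mice of the H2-b haplotype do not express, was not above background (104 and 109). The values were close on both arrays, the median gene being 1.05-fold higher on array 1.

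Class II promoters share an S-X-Y module, whose Y box binds NF-Y. The promoters of H2-Aa (chr17:34287814-34287963, minus strand) and H2-Eb1 (chr17:34305727-34305876, plus strand) are printed because these genes stood among the 500, from 140 bases before to 10 after the start given by RefSeq on GRCm38.p6. H2-Ab1 and Cd74, the other class II genes among the 500, were not among the genes matched to a promoter by symbol. Capitals mark the Y box CTGATTGG.
H2-Aa: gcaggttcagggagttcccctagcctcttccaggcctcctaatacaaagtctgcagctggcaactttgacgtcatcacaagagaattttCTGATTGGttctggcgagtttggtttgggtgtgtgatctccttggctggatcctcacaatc
H2-Eb1: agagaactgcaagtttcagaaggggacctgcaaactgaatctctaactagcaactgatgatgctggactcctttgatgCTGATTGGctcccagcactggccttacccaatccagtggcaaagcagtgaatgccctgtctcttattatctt
The box lies 51 to 44 bases before the start of H2-Aa and 62 to 55 bases before that of H2-Eb1. Searched on both strands (CTGATTGG or CCAATCAG) in the 300 bases around the start, it was found in 4 of 8 class II genes matched by symbol (H2-Aa, H2-Eb1, H2-Eb2 and H2-Oa), beside 4.70% of the genes of the table. Searches for the 2 kinds of motif were separate, and their matches may overlap.

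Class I genes were bright on both arrays as well, with 4 of 22 genes of class I and the immunoproteasome among the 500. H2-K1 gave 9103 and 9084, B2m, the class I light chain, gave 7944 and 9504, and H2-T23, which encodes Qa-1, gave 5505 and 7100.0. Interferon-stimulated genes were mostly of middle rank. Of 41, 35 were above background on both arrays and 3 among the 500, namely Ifi27 (6955 and 6949.9), Ly6e (4713 and 4279.7) and Samhd1 (4177 and 4095), while Ifit1, Oas1a and Oas3 were not above background on both. Of the 12 Toll-like receptor genes, 7 were above background on both arrays, and the brightest was Tlr7 at 410.3 and 465.

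Some lineage markers of many blood cell types were among the abundant transcripts. Of the 21 cell type lists, 16 had at least 1 member among the 500. That number depends on the length of the lists, which hold 7 to 35 measured genes. The shares of members given next can be read beside the 2.62% of all genes in this class. For several lists this was 1 gene, as for stromal (1 of 25, 4%), macrophage (1 of 22, 4.55%) and acinar genes (1 of 19, 5.26%). The highest shares were those of azurophil granule (3 of 7, 42.9%), NK cell (3 of 18, 16.7%) and mast cell and basophil genes (2 of 13, 15.4%). With the median over probes the macrophage, stromal and acinar counts were 0. The lists with the best median ranks were T cell (1847), neutrophil azurophil granule (1911), B cell (2154.5), marginal zone B cell (2212.5) and mast cell and basophil (2592). The macrophage list, at 7213, and the marginal zone macrophage list, at 9746, ranked lower. Which cells these transcripts came from was not tested.

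**Figure D2:**
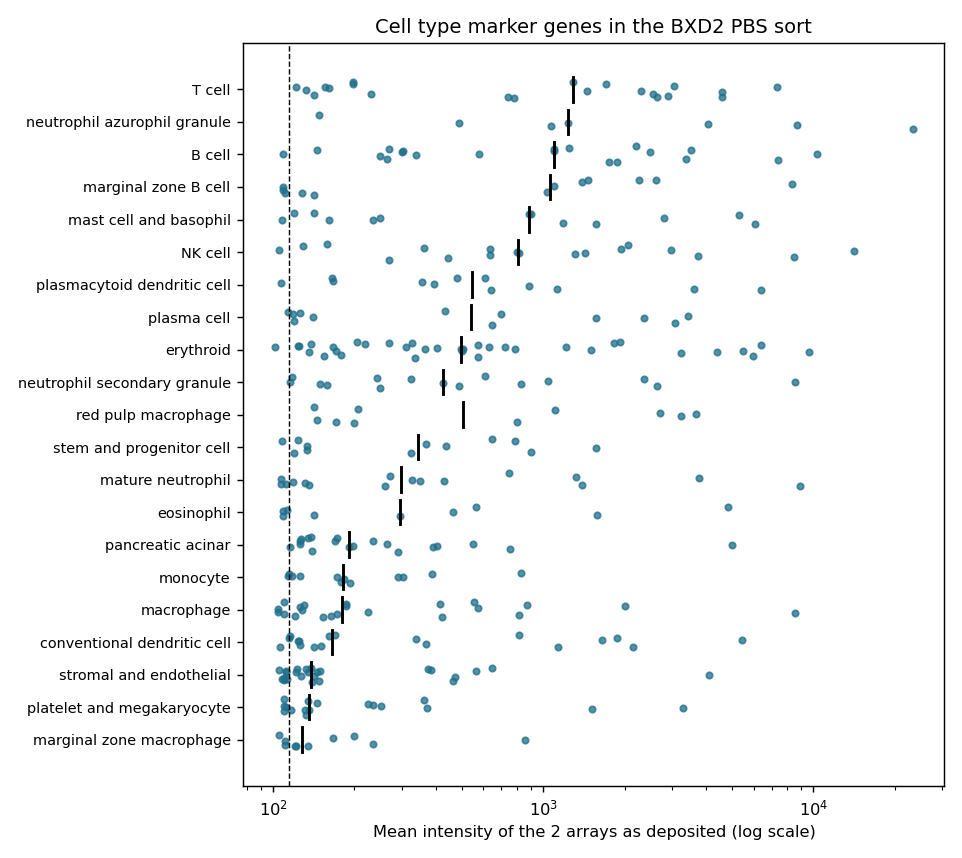
Mean intensity of the 2 BXD2 PBS arrays (log scale, as deposited) for each measured member of the 21 cell type lists, 1 point per gene. Black bars are list medians, the dashed line is the mean of the background limits, and lists are ordered by median rank, from T cell (1847) at the top to marginal zone macrophage (9746) at the bottom.

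The brightest gene on any cell type list was Mpo. This gene, which encodes the myeloperoxidase of azurophil granules, gave 26122 and 20408 and ranked 22, and its further probes were all above background, at 17314 and 12837, 4722 and 3645, and 233 and 176. Ctsg, the granule protease cathepsin G, gave 10336 and 6985, Prtn3, proteinase 3, gave 4918 and 3221 and Elane, neutrophil elastase, gave 1294 and 849.7. All 7 azurophil granule genes were above background on both arrays, and 3 were among the 500. All 15 secondary granule genes were above background on both, with Ltf (lactoferrin) at 3471 and 1794 and Camp (cathelicidin) at 3257 and 1475. Among genes of mature neutrophils, S100a9 gave 11828 and 6035 and S100a8, its partner in calprotectin, gave 4777 and 2756, while Padi4 and Stfa2l1 were not above background on both. Both S100 genes were among the 500, and 1 of the 16 genes of mature neutrophils was when array 2 was ranked alone. Nearly every granule gene was higher on array 1, 6 of 7 for azurophil and 13 of 15 for secondary granules. The median log2 differences, array 2 minus array 1, were -0.42 and -0.56, beside 0.01 over all 13620 genes above background on at least 1 array.

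Lymphocyte genes were well represented. Of 20 B cell genes 19 were above background on both arrays, the exception being Pax5. Cd79b, a signalling chain of the B cell receptor, gave 10931 and 9622 and ranked 89, although its other probe gave 247 and 226. Fcmr, the IgM Fc receptor, gave 8000.0 and 6805, the kinase gene Blk 3971 and 3098 and Fcrla 3529.7 and 3246. The chemokine receptors Ccr6 (7754 and 5452) and Cxcr5 (2135 and 2262) were the brightest of their 22-gene list. Among genes of marginal zone B cells, which lie beside the macrophages, Plac8 gave 8425 and 8244, Dtx1, a Notch target, gave 2744 and 2494, Cr2, the complement receptor CD21, gave 1246 and 939 and Cd1d1 gave 972 and 1095. In the plasma cell list the secretory factor Xbp1 gave 2939 and 3227, Creld2 gave 4225 and 2642 and Jchain gave 841 and 553, none of 12 being among the 500, and 1 when array 1 was ranked alone. Of the plasma cell list, 8 immunoglobulin genes were not analysed here.

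All 21 T cell genes were above background on both arrays. Cd8b1, a chain of the CD8 coreceptor, gave 6135 and 8508, the transcription factor gene Bcl11b 4571 and 4627, the adaptor gene Lat 4545 and 4612, and Cd3d, of the T cell receptor complex, 2710.1 and 3059. Of 18 NK cell genes 17 were above background on both arrays. Prf1, the pore-forming perforin, gave 14826 and 13353 and ranked 54, with another probe at 506 and 674. The chemokine gene Ccl5 gave 8751 and 8240.4, the inhibitory receptor gene Klrd1 (CD94) 2397 and 3549.6 and Eomes 1728 and 2148. Gzmb was not above background on both arrays. After quantile normalisation array 2 was higher for 19 of 21 T cell and 15 of 17 NK cell genes. The median log2 differences, array 2 minus array 1, were 0.19 and 0.49, beside 0.01 over all 13620 genes. As deposited, Prf1 and Ccl5 were brighter on array 1.

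Of 13 mast cell and basophil genes 12 were above background on both arrays and 2 were among the 500. Mcpt8, a basophil protease, gave 6001 and 6179.8 and ranked 231. Hdc, which makes histamine, gave 5596 and 4998, and Prss34 gave 2238 and 3343. Of 9 eosinophil genes 6 were above background on both arrays, near the share of all genes, and the median rank was 5414. Prg2, the major basic protein of eosinophils, gave 4829 and 4817 and was the only member among the 500, while the peroxidase gene Epx gave 518 and 605 and Prg3 298 and 292. The eosinophil receptor genes Siglecf and Ccr3 were not above background on both arrays. Plasmacytoid dendritic cell genes included Tcf4, their master factor, at 7042 and 5779, and Siglech at 4144 and 3088. Further probes lay close to the limits for Tcf4 (120 and 119, 110 and 120) and Siglech (113 and 123, 115 and 112). Of the 12 genes on the list 1 was among the 500, and 2 when array 1 was ranked alone. Among conventional dendritic cell genes, Irf8 gave 5892 and 5027, Ccr7 2398 and 1904 and Clec9a 301 and 438, while Cd209a, Ccl17 and Ccl22 were not above background on both. Progenitor genes Gata2 (1321 and 1808) and Kit (852 and 953), which also stand on the mast cell list, were detected on both arrays.

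Macrophage genes other than those of the marginal zone were of middle rank. Of 22, 18 were above background on both arrays and 1, Lyz2, was among the 500. Lyz2, the myeloid lysozyme that neutrophils also make and that has a close paralog in Lyz1, gave 11533 and 5591. Lgals3 (galectin 3) gave 2145 and 1860.1, the efferocytosis receptor gene Axl 1258 and 480.0, Fcgr4, an IgG receptor, 1061 and 563 and Cd163, a haemoglobin scavenger receptor, 601 and 241. Vsig4, Folr2, Cd5l and Trem2 were not above background on both. Red pulp macrophage genes were all 10 above background on both arrays. The metal transporter Slc11a1 gave 4496 and 2848, the biliverdin reductase Blvrb 3584 and 2884 and the iron exporter Slc40a1 3624 and 1769. Slc11a1 was the list's only member among the 500, and with array 2 alone none was. Spic, the factor that specifies red pulp macrophages, gave 189 and 153. On the monocyte list Chil3 (1223 and 427), also a granule gene, was the brightest, before Cx3cr1 (403 and 374) and Csf2ra (309 and 295).

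Erythroid genes held the largest share of any cell type list on array 1, 0.655%, ahead of the azurophil granule list (0.477%). A share is a sum over members, and the erythroid list is the longest of the 21, with 35 genes measured. On array 2 the erythroid share was 0.385%, below those of the NK cell (0.489%), T cell (0.445%), B cell (0.408%) and azurophil granule (0.388%) lists. Those lists hold 18, 21, 20 and 7 genes. Hbb-bs and Hbb-bt, adult beta globins of nearly the same sequence, gave 14246 and 5029 and 9305 and 3493. The water channel gene Aqp1 gave 7307 and 4672 and Prdx2, an abundant red cell antioxidant, 6096 and 4845. The erythroid factor gene Klf1 gave 1419.5 and 1002. Platelet genes were led by Plek (3535 and 3032) and Pf4 (956 and 2067), stromal and endothelial genes by Igfbp7 (5017 and 3166) and Egfl7 (679.7 and 615). Igfbp7 was the only stromal gene among the 500, and with array 2 alone none was. The other probes of Igfbp7 were all below the limits. Digestive enzymes of the pancreas, an organ that lies against the spleen, were also measured, and 18 of 19 acinar genes were above background on both arrays. The amylase gene Amy2a5 gave 3126 and 6839 and the elastase gene Cela2a 407 and 1106. Amy2a5 was the only acinar gene among the 500, and with array 1 alone none was.

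Genes on no list were among the brightest as well. The 10 brightest of them were Ubb-ps, Gm6548, Erich5, Srr, Ybx1, Npm1, Irgm1, Ptp4a2, Rhbdl2 and Slc25a5. Ubb-ps (24492 and 24082) and Gm6548 (24844 and 23471) carry names of a pseudogene and a predicted gene. Ybx1 (19627 and 21047), an RNA-binding cold shock protein, and Npm1 (17682 and 18709), a nucleolar chaperone, are broadly expressed. Irgm1, an interferon-inducible GTPase, gave 18028 and 17668 on 1 probe, 442 and 544 on the next and 107.8 and 109.6 on the last. Erich5 gave 24205 and 23143 on 1 probe, and 109 and 106 on its other, below the limits, and Rhbdl2 gave 19262 and 13699.6 and then 109 and 107. Srr, which encodes serine racemase, was bright on a second probe too, at 24059 and 21132 and then 10015 and 8541.

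Such gaps between probes of 1 gene were common. Of the 500 brightest genes 305 had several probes, and in 34 of these the second probe was not above background on both arrays. The second probe was over 10-fold dimmer in 166 of the 305 and less than 2-fold dimmer in 59, with a median of 13.02-fold. The brightest probe was chosen for its brightness, so the gap is widened by that choice. Over 4306 genes with both probes above background on both arrays, the probes of a gene lay 1.78-fold apart in the median, while the arrays lay 1.09-fold apart for 1 probe. A gap of 2-fold or more separated the probes in 1881 (43.7%) and the arrays in 16.

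**Figure D3:**
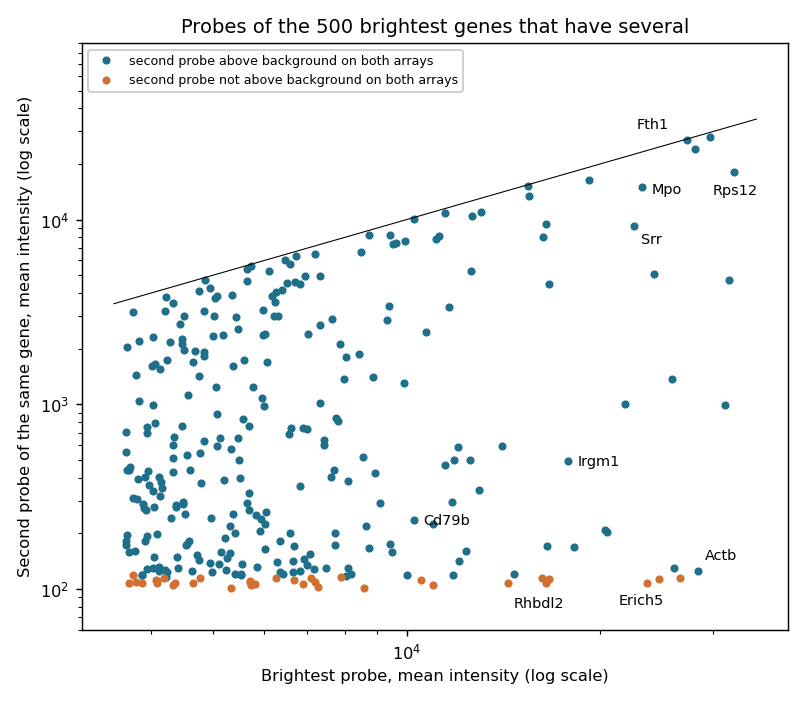
Mean intensity of the brightest probe (x axis, log scale) and the next probe (y axis, log scale) of the 305 genes with several probes among the 500 brightest. Points on the line have equal probes, and the 34 orange points, with Erich5 and Rhbdl2 among them, have a second probe that was not above background on both arrays.

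The 2 arrays ranked genes nearly alike. Across the 13620 genes above background on at least 1 array, which are not independent replicates, Pearson's r of the log2 intensities was 0.992 and Spearman's rho 0.969. The median log2 difference, array 2 minus array 1, was 0.01 and its SD 0.20, its central 95% ran from -0.44 to 0.37, and 12357 genes (90.7%) lay within 1.25-fold. Before normalisation the 500 brightest genes were lower on array 2, with a median log2 difference of -0.16, while over all 13620 the median was -0.03. The SD was 0.24 for the 500 brightest genes, 0.28 for ranks 2001 to 5000 and 0.09 beyond rank 8000, where the background limit holds values together.

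**Figure D4:**
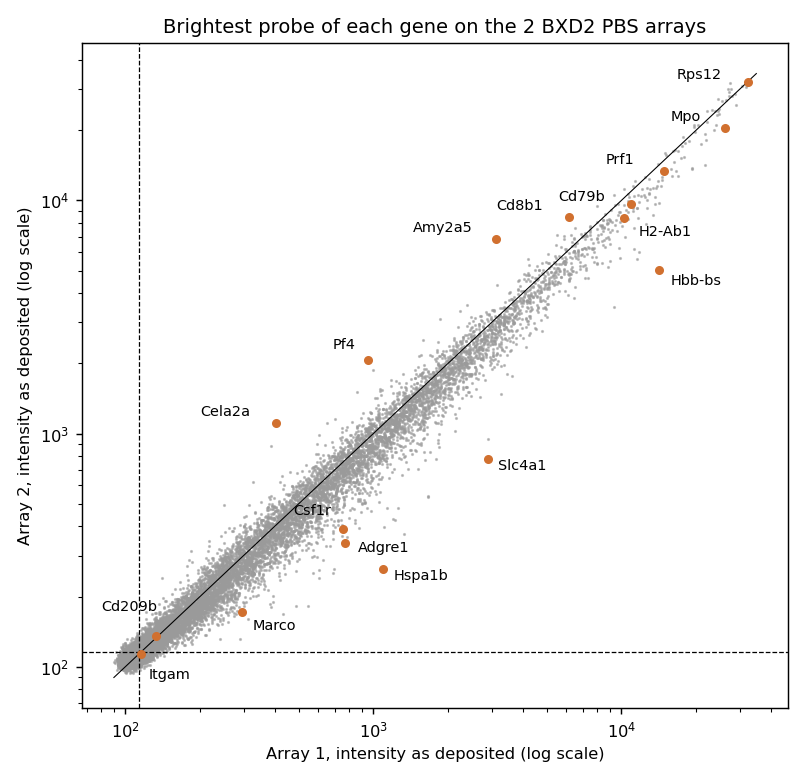
Intensity of each of the 19057 genes on array 1 (x axis) and array 2 (y axis), both log scales, as deposited. Dashed lines are the limits of 113 and 115, the solid line marks equal values, and labelled orange points show Cd209b at the background limit and Slc4a1, Hspa1b and Cela2a away from the line.

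Few genes were 2-fold apart, and more were higher on array 1. Of the 13620 genes, 27 were 2-fold higher on array 1 (0.198%) and 7 on array 2 (0.0514%), so 79.4% of these were higher on array 1. As deposited the counts were 45 and 4 (91.8% higher on array 1), with median scaling 47 and 4 (92.2%), and with the background subtracted 123 and 56 (68.7%). Of the 27 genes 13, and of the 7 genes 6, were on cell type lists, which hold 303 of the 13620. The lists were chosen with earlier results of these data known, so these counts are a description only. No test is possible with 1 array against 1 array.

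The genes higher on array 1 included heat shock, red cell, macrophage and neutrophil genes. Hspa1b and Hspa1a, the inducible HSP70 pair, gave 1093 and 262 (3.84-fold) and 1329 and 369.9 (3.25-fold), and their near-identical sequences can share probes. Of the 34 erythroid genes above background on both arrays, 30 were higher on array 1 and 6 by 2-fold. Their median log2 difference, array 2 minus array 1, was -0.35, beside 0.01 over all 13620 genes. Slc4a1, the band 3 anion exchanger, gave 2890.2 and 776 (3.33-fold), Alas2, which starts haem synthesis, 544 and 183 (2.75-fold), and Hba-a1 2902 and 949 (2.72-fold). Hbb-bs was 2.52-fold higher on array 1.

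Macrophage genes moved the same way, 17 of the 18 above background on both arrays being higher on array 1. Their median log2 difference, array 2 minus array 1, was -0.56 (1.48-fold higher on array 1), beside 0.01 over all 13620 genes. The adhesion molecule gene Vcam1, on the red pulp list, gave 1669 and 536 (2.80-fold), Axl was 2.36-fold, Cd163 2.30-fold and Adgre1 2.08-fold higher. Chil3, a chitinase-like protein, was 2.59-fold and the cytokine gene Il1b 2.51-fold higher. Lrg1 (1662 and 543) and Clec7a, the beta-glucan receptor dectin-1 (1202 and 429), were on no list and were 2.75-fold and 2.54-fold higher. Most erythroid, macrophage and neutrophil genes were therefore higher on the same array, while 11 of 12 detected mast cell and basophil genes and 5 of 7 detected eosinophil genes were higher on array 2. The median log2 difference was 0.49 for the mast cell and basophil list and 0.08 for the eosinophil list. The part that cells of these types had in the gap between the arrays was not tested.

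The genes higher on array 2 were of other lineages. All 19 acinar genes leaned to array 2, Cela2a by 3.003-fold and Amy2a5 by 2.47-fold, and the list's share was 0.0527% on array 1 and 0.122% on array 2. The acinar list had a median log2 difference of 0.32, beside 0.01 over all 13620 genes. The platelet genes Pf4 and Itga2b (249 and 494) were 2.43-fold and 2.15-fold higher. The NK receptor genes Klra8 (388 and 883) and Klra3 (993 and 1872), members of a family of close paralogs, were 2.49-fold and 2.10-fold higher, and Klra4 was 1.87-fold. Cpa3 and Fcer1a, of mast cells and basophils, were 1.94-fold and 1.90-fold higher, below 2-fold. Sfi1, a centrosome gene on no list, gave 327 and 621. Of the 16 genes among the 34 that have a second probe above background, all 16 had the same direction on it, but 4 were 2-fold apart there too (Chil3, Hbb-bs, Hbb-bt and Hspa1a). For Amy2a5 the second probe differed by a log2 of 0.09 and for Hspa1b by -0.09. The second probes of Amy2a5 (118 and 127) and Vcam1 (129 and 115) lay close to the limits. Raising values to the floor of 114 narrows differences there, so such probes say little about a 2-fold gap.

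**Figure D5:**
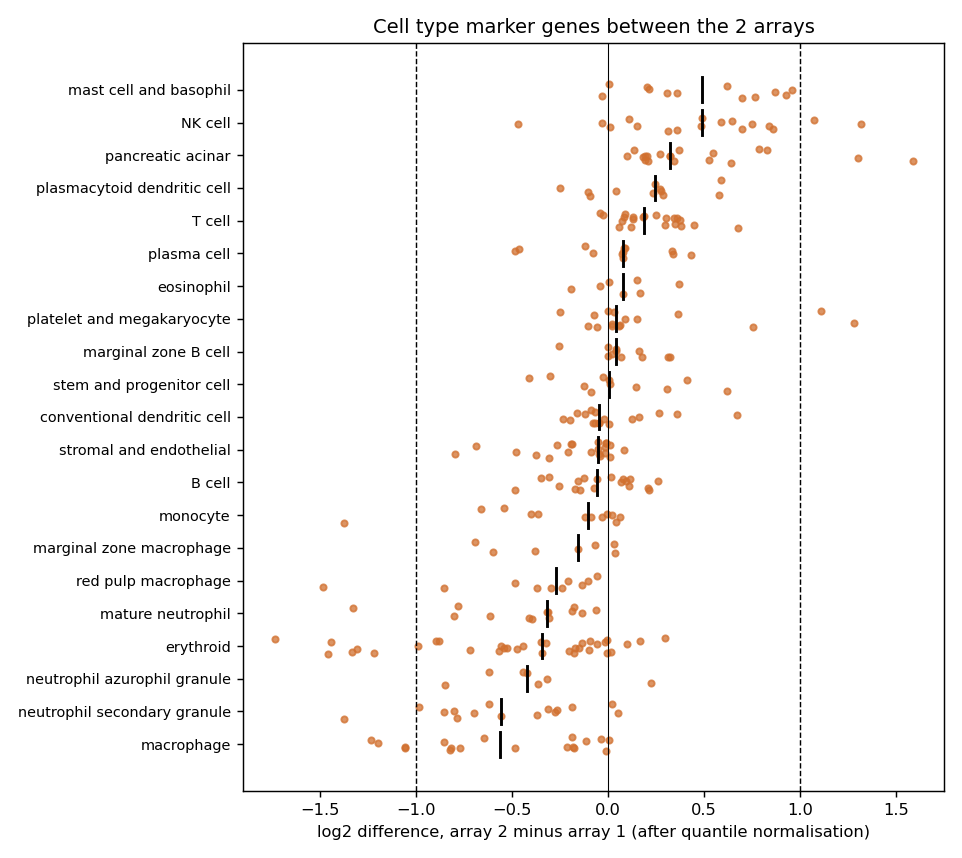
Log2 difference, array 2 minus array 1 after quantile normalisation, of the members of each cell type list above background on at least 1 array, 1 point per gene, with list medians as black bars and dashed lines at 2-fold. Macrophage, granule and erythroid genes lie to the left (higher on array 1), and mast cell, NK cell and acinar genes to the right.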

How the data were processed

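RNA of the sorted spleen cells was extracted with Trizol, labelled with the Ambion MessageAmp kit and hybridised to Illumina single-colour mouse bead arrays, per the labels' protocols. The values are the linear intensities the authors deposited, 1 per probe and array for 45281 probes. GenomeStudio 2011.1 is named in the submitters' processing notes. Scaling and background handling were not given in the sources used here.

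In the platform annotation 1 gene symbol was found for 34885 probes, several for 18 and none for 10378. Of 19057 symbols, 18992 were matched by gene ID to RefSeq (GRCm38.p6), all under the same symbol. A gene took its brightest probe by the mean of the 2 arrays. Background was the most frequent intensity of an array, and the limit was the 95% point of the lower values mirrored about it. Ranks, levels and signal shares (intensity minus background, negatives set to 0) used the values as deposited. Differences between the arrays used quantile-normalised values raised to a floor of 114 (the mean limit) on the log2 scale, which understates those of dim genes. With 1 group of 2 arrays nothing was tested. The self-test on simulated arrays passed its checks. Named genes were the 30 brightest, the leading 3 to 5 of each list, the gate's genes with all probes, the 10 furthest apart in each direction, the 10 brightest on no list and the members of a list furthest apart; others were named after their values were seen. The members and the 45 lists were chosen with earlier results of these data known, and lists share members. Python 3.11.15, numpy 2.4.6, pandas 2.3.3 and scipy 1.17.1 were used.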

Additional observations from a re-analysis of the deposited data

Results flagged for a closer look

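Probes without exactly 1 gene symbol carry signal that the ranking leaves out. Of 10396 such probes, 3816 were above background on both arrays (36.7%), beside 17876 of the probes with 1 symbol (51.2%). Of them, 192 were brighter than the 500th gene, and 14 of the 30 brightest probes of the arrays were among them. The brightest gave 30276 on array 1 and 33559 on array 2. Which transcripts they report was not tested.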

How the results depend on the processing

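The count of genes above background on both arrays (11601) was 10925 with the stricter noise limit and 10255 with the median over a gene's probes. Array 1 alone gave 12643 and array 2 alone 12578. Pearson's r stayed between 0.992 and 0.993 under the 4 alternatives run. The number of genes 2-fold apart (34) was 49 as deposited, 51 with median scaling, 26 with the median over probes, and 179 with the background subtracted and an offset of 16, which widens the differences of dim genes.

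Counts among the brightest moved with the number of genes taken. Among the 250 brightest there was 1 macrophage gene, 2 B cell genes and 32 ribosomal protein genes, and among the 1000 brightest 1 macrophage and 39 ribosomal protein genes, each count being set against the size of the class. With the median over probes, 0 macrophage genes and 1 T cell gene were among the 500, so both counts rest on genes with unequal probes. The share of the signal with the median over probes was 0.0834% for macrophage, 0.441% for B cell, 0.239% for T cell and 8.48% for ribosomal protein genes, and without background subtraction it was 0.359% for B cell and 6.09% for ribosomal protein genes.

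Of all 45 lists, leaving out array 1 moved 3 counts among the 500 and leaving out array 2 moved 5. Smaller changes were not counted as moved here. For example, the NK cell count of 3 was 4 without array 1. The ribosomal protein count of 36 was 33 with the median over probes. With the median over probes 14 of the 45 counts and 33 of the 45 signal shares moved, and without background subtraction 29 of the 45 shares did. Among those 14, the red pulp macrophage, plasmacytoid dendritic cell, secondary granule, stromal and acinar counts were 0, the erythroid and cell cycle counts 3, the mitochondrial ribosomal protein count 4 and the actin count 7. The agreement and the 2-fold counts have no value with 1 array. No paired analysis was possible because the arrays form 1 group. Beyond the number of arrays, signal near background limits every statement about Cd209b, Itgam and other genes close to the limits.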
